A study of Mus musculus with 36 samples.

Results

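The Sprouty, Spred and receptor kinase feedback genes are 7 named genes, Spry1, Spry2, Spry4, Spred1, Spred2, Spred3 and Errfi1. They were taken by name from the 26709 genes of the RNA table, and all 7 were found and passed the filter on low values. The cells were primary cortical neurons of CD-1 mouse embryos at embryonic day 15, plated from dissociated cortex and kept for 7 days in vitro. AP-5 (100 µM), a blocker of NMDA receptors, and TTX (1 µM), a blocker of sodium channels, were added to every group for 2 h, controls included. Brain-derived neurotrophic factor (BDNF, 10 ng/ml) or KCl (55 mM) followed for 1, 6 or 10 h. Controls stayed in AP-5 and TTX for 3, 8 or 12 h in total, and stimulated groups are listed with 2 h. In comparisons with controls, the stimulus and the time in AP-5 and TTX therefore cannot be told apart. RNA-seq and ATAC-seq (a transposase-based readout of open chromatin) were each made in 18 samples, 2 for each of 9 groups, and the 6 controls of the 3 times were pooled in the tests.

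Receptor tyrosine kinases such as TrkB, the receptor of BDNF, pass their signal through adaptors to Ras, Raf, MEK and ERK, and ERK then changes transcription. Sprouty proteins hold back the step from receptor to Ras and Raf, Spred proteins bring the Ras-inactivating protein neurofibromin (Nf1) to the membrane, and Errfi1 (Mig6) binds and inhibits the EGF receptor family. Several of these genes are known as targets of the pathway that their proteins restrain, which is why they are described as feedback inhibitors. KCl acts first through depolarisation and calcium entry, which can also reach Ras and ERK.

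Total reads ranged from 8508452 to 36699187 per RNA library and, in peaks, from 1241829 to 6236439 per ATAC library, and each member had between 108 (Spry4) and 4552 (Spred1) reads in a single library. All 9 neuron markers were present, with summed normalised counts of 49810 to 55633 in controls. The 8 markers of astrocytes and radial glia summed to 19970 to 24149 and the 6 markers of dividing cells to 4434 to 7263 in controls. Of the microglial markers the sum in controls was 122 to 174, and 5 of 6 were high enough to be tested. In bulk samples, fewer cells of a type and less RNA per cell cannot be told apart.

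Chromatin windows with the largest accessibility changes at 1 h of BDNF within 50 kb of a member's start or inside its gene are shown first for Spred2 and Spry1, with a promoter that holds the only cAMP response element found. Capitals mark the 5 motifs searched, on both strands: AP-1 (TGANTCA), CRE (TGACGTCA), ETS (CCGGAA), EGR (GCGNGGGCG) and the CArG box of SRF. The Spred2 window is the central 300 bases of an intronic peak at chr11:19979271-19979668 (GRCm38, plus strand, shown from 19979320 to 19979619), 55.1 kb into the gene and 24.9 kb past its internal start. It holds 2 AP-1 matches, TGACTCA at bases 190 to 196 and TGAATCA at bases 230 to 236 of the window.
Spred2 intron: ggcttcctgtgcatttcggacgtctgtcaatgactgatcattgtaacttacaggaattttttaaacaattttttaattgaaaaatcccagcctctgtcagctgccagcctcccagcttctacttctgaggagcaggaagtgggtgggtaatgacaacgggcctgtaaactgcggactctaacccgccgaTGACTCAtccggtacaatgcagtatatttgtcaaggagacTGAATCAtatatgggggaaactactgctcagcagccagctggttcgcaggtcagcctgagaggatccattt
The Spry1 window is a whole peak of 280 bases at chr3:37672429-37672708 (plus strand), outside the gene and 32.5 kb past its start, with 1 AP-1 match at bases 150 to 156.
Spry1 downstream: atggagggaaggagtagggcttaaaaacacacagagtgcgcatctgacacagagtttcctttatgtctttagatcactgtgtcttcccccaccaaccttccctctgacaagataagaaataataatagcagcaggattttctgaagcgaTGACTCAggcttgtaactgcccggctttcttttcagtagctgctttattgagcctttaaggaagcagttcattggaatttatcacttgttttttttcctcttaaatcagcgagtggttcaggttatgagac
The Errfi1 sequence is the 250 bases before its second RefSeq start, chr4:150854820-150855069 (GRCm38.p6, plus strand), inside the main peak of the gene, with 1 CRE match at bases 200 to 207.
Errfi1 promoter: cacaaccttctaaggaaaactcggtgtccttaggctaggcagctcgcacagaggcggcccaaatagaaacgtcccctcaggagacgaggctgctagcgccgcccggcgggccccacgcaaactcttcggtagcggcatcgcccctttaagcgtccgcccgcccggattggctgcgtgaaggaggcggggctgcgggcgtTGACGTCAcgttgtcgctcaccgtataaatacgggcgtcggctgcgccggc

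The first question was how each gene responded to BDNF, which acts through TrkB. All 7 members were higher than the controls at 1, 6 and 10 h of BDNF, and in each case both BDNF samples lay above all 6 controls, which held for 24.6%, 25.8% and 23.4% of all genes tested. Of the 16209 genes tested, 40.4% were called at 1 h (adjusted p below 0.1, limma), 21.3% higher and 19% lower. The shares were 43.3% at 6 h (22.1% higher, 21.1% lower) and 40.6% at 10 h (21.1% higher, 19.5% lower). The members' median log2 fold change was 1.31, 0.81 and 0.67 at the 3 times, while the median over all genes was close to 0 at each.

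Among the Sprouty genes, Spry4 changed most. Its normalised read count was 118, 139 and 153 (lowest, median, highest) in controls. With BDNF it was 1241 and 1210.5 at 1 h, 1079 and 1017 at 6 h, then 942 and 847 at 10 h. Both samples of every BDNF group were far above the controls, by 3.16 ± 0.19 on the log2 scale (SE) at 1 h (8.91-fold, adjusted p = 3.309e-09), 2.93 at 6 h and 2.70 at 10 h. Its later BDNF samples lay below the earlier ones at each step without overlap, as in 35.9% of all genes from 1 to 6 h and 19.3% from 6 to 10 h, but neither step was called (log2 difference of -0.23 ± 0.23 each, with an SE that shares the spread of all groups, the wide KCl 1 h pair included). Spry2, the member with the highest control level per length, had 587, 675 and 698 in controls. Its BDNF samples had 1518 and 1623 at 1 h, 1155 and 1152 at 6 h, then 1117 and 1090 at 10 h. The level at 1 h was 2.38-fold that of controls (log2 1.25 ± 0.08, adjusted p = 1.616e-11), and it then fell by 0.44 on the log2 scale to 6 h (adjusted p = 0.001048). Spry1 had 144, 167 and 212 in controls, and its BDNF samples had 248 and 318 at 1 h, 254 and 289 at 6 h, then 265 and 256 at 10 h. Its rise was the smallest of the 3 Sprouty genes at every BDNF time and was flat over time, at 0.72 ± 0.13, 0.67 ± 0.13 and 0.61 ± 0.13 on the log2 scale. Spry1 shares 710 bases with Gm42922, a gene on the other strand that the RNA table lacks. Reads from the shared bases cannot be told apart without strand. Spry4 shares 71 and 119 bases with Gm27369 and Gm27804 on the other strand, whose highest group mean was 1.14.

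The 3 Spred genes differed in their course. Spred2 had 765, 819 and 866 in controls and 2637 and 2758 after 1 h of BDNF, 1492 and 1414 after 6 h, and 1380 and 1228 after 10 h. It was thus high at 1 h (3.29-fold, log2 1.72 ± 0.08, adjusted p = 5.599e-14) and fell by 0.89 to 6 h (adjusted p = 2.187e-07), while both later times stayed above the controls. Spred1 had 1495, 1676 and 1732 in controls, 2897 and 2908 at 1 h of BDNF, 2274 and 2048 at 6 h, then 2096 and 2010 at 10 h. It followed the same order with smaller changes, 0.82 ± 0.08, 0.39 ± 0.08 and 0.32 ± 0.08 on the log2 scale, with a fall of 0.43 from 1 to 6 h (adjusted p = 0.003271). Spred3 went the other way with time. Its counts were 433, 475 and 490 in controls, 1178 and 1197 at 1 h of BDNF, 2216 and 2047 at 6 h, then 2279 and 1943 at 10 h. The gene rose 2.54-fold by 1 h (log2 1.34 ± 0.07) and by a further 0.84 ± 0.09 from 1 to 6 h (adjusted p = 4.364e-07), reaching 4.55-fold.

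Errfi1 shares 1031 bases with 1700045H11Rik, an antisense gene not analysed here, and reads from the shared bases cannot be told apart without strand. It had 261, 267 and 299 in controls, 718 and 654 at 1 h of BDNF, 374 and 344 at 6 h, then 348 and 329 at 10 h. The early level was 2.49-fold that of controls (log2 1.31 ± 0.14, adjusted p = 2.35e-07) and fell by 0.93 to 6 h (adjusted p = 0.0002881). What remained was small, 0.38 ± 0.14 at 6 h (adjusted p = 0.03351) and 0.30 ± 0.14 at 10 h (adjusted p = 0.09767). The call at 10 h was lost under most alternatives, among them edgeR on whole reads (adjusted p = 0.1271), and the call at 6 h was lost without BDNF 6 h replicate A (adjusted p = 0.2362) and against the controls of the same time (adjusted p = 0.1471). From 1 to 6 h of BDNF, 4 members fell and 1 rose, beside 33.6% of all genes called (17.7% lower, 15.8% higher), and from 6 to 10 h limma called none of the 7 and 0.216% of all genes (0.074% higher, 0.142% lower). Between 6 and 10 h, 949 of the 16209 genes had an unadjusted p below 0.05 (limma), a threshold that a share of 0.05 of unchanged genes would pass by chance.

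**Figure D1:**
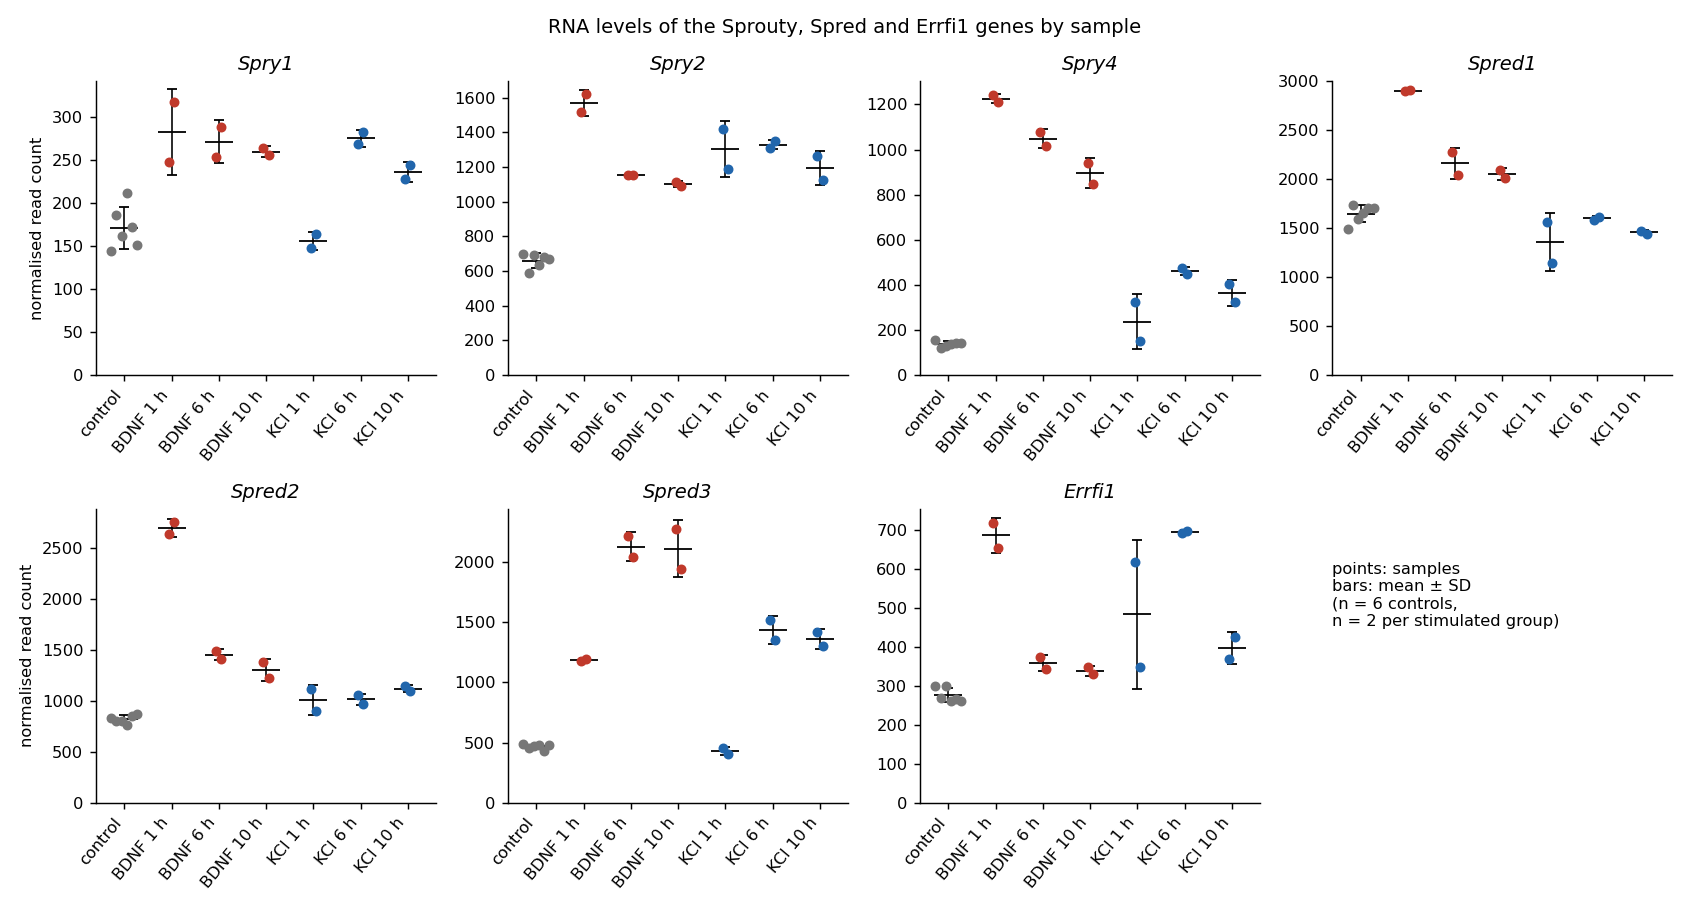
Normalised read count (y, linear from 0) of each of the 7 genes in every RNA sample, with the 6 controls in grey, BDNF in red and KCl in blue; bars are mean ± SD (n = 6 or 2). Every BDNF point lies above all controls of its gene, Spry4 stays high to 10 h, Spred2 and Errfi1 drop after 1 h, Spred3 is highest at 6 and 10 h, and the KCl 1 h points of Spry4, Spred1 and Errfi1 stand apart from each other.

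The second question was whether depolarisation moved the same genes. At 1 h of KCl, 4 members were called higher (Spry2, Spry4, Spred2, Errfi1) and 1 lower (Spred1), beside 54.7% of all genes, 26.5% higher and 28.2% lower. At 6 h, 6 members were higher and none lower (66.5% of all genes, 33.4% higher and 33.1% lower), and at 10 h, 6 were higher and 1, Spred1, was lower (57.2%, with 29% higher and 28.2% lower). The members' median log2 fold change was 0.29, 1.01 and 0.52 at the 3 times, and that of all genes was again close to 0.

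Spry2 responded to KCl about as much at every time, with 1418 and 1191 at 1 h, 1312 and 1349 at 6 h, then 1263 and 1127 at 10 h. All 6 values were above the highest control of 698, by 0.98 ± 0.08, 1.01 ± 0.08 and 0.86 ± 0.08 on the log2 scale, and neither step in time was called. Spry4 had 324 and 150 at 1 h of KCl, 473 and 448 at 6 h, then 405 and 322 at 10 h. Both later times were above the controls (log2 1.74 ± 0.19 and 1.40 ± 0.19, or 3.35-fold and 2.63-fold), whereas at 1 h replicate B lay within the control range. Without KCl 1 h replicate A the change of Spry4 at 1 h was 0.13 (adjusted p = 0.454), and without replicate B it was 1.24. Spry1 had 148 and 164 at 1 h, 268 and 283 at 6 h, then 229 and 245 at 10 h. It overlapped the controls at 1 h (log2 -0.12 ± 0.13, not called) and was above them later, with 0.70 ± 0.13 at 6 h (adjusted p = 5.983e-05) and 0.48 ± 0.13 at 10 h.

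Spred3 showed the largest step in time with KCl. It had 451 and 404 at 1 h, inside or just under the control range, then 1516 and 1354 at 6 h and 1424 and 1306 at 10 h. The change from controls was -0.13 ± 0.07 at 1 h (adjusted p = 0.1534), 1.61 ± 0.07 at 6 h and 1.54 ± 0.07 at 10 h, and the step from 1 to 6 h was 1.74 ± 0.09 (3.35-fold, adjusted p = 3.587e-12). Ggn, which lies on the other strand and shares 202 bases with Spred3, had group means of 21.1 in controls and 43.1 to 60.4 in the stimulated groups, far under those of Spred3. Whether the counting used strand is not given in the sources used here, so reads from the shared bases cannot be told apart.

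Spred2 had 1111 and 900 at 1 h of KCl, 1053 and 971 at 6 h, then 1147 and 1092 at 10 h. These values were above the highest control of 866 but by little, 0.29 ± 0.08, 0.30 ± 0.08 and 0.45 ± 0.08 on the log2 scale, and without KCl 1 h replicate A the value at 1 h was 0.13 (adjusted p = 0.2407) and without replicate B 0.44. Spred1 had 1563 and 1147 at 1 h, 1578 and 1618 at 6 h, then 1470 and 1444 at 10 h. No KCl time was above the controls, and the calls of lower RNA were small and unsteady. The value at 1 h (-0.30 ± 0.08, adjusted p = 0.005505) became -0.07 without KCl 1 h replicate B (adjusted p = 0.5185) and -0.52 without replicate A, and that at 10 h (-0.17 ± 0.08, adjusted p = 0.08679) was lost without either KCl 10 h library. Errfi1 had 619 and 349 at 1 h, 692 and 698 at 6 h, then 368 and 426 at 10 h. All 6 were above the highest control of 299, with log2 changes of 0.75 ± 0.14, 1.33 ± 0.14 (2.52-fold) and 0.52 ± 0.14. The value at 1 h was 0.34 without KCl 1 h replicate A and 1.17 without replicate B.

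From 1 to 6 h of KCl, 5 members rose (Spry1, Spry4, Spred1, Spred3, Errfi1) and none fell, beside 59.6% of all genes, 30.9% higher and 28.7% lower. The rises of Spred1 and Errfi1 rested on the spread of the 1 h libraries: without KCl 1 h replicate B they were 0.03 (adjusted p = 0.8154) and 0.17 (adjusted p = 0.2925), and without replicate A 0.48 and 0.99. Without KCl 6 h replicate B the rise of Spred1 was 0.24 (adjusted p = 0.1236). The rise of Spry4, 1.06, was 1.61 without KCl 1 h replicate A and 0.51 without replicate B, both called. From 6 to 10 h, Errfi1 alone was called and fell by 0.81 (adjusted p = 0.002987), beside 22.5% of all genes, 12.9% higher and 9.66% lower. In controls, no member was called at 6 or 10 h against 1 h in limma, nor was any of the 16209 genes, of which 164 and 181 had an unadjusted p under 0.05. The members' control changes ran from -0.06 to 0.17 at 6 h and from -0.11 to 0.08 at 10 h.

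BDNF and KCl were then compared directly at each time. At 1 h all 7 members were higher with BDNF, beside 42.8% of all genes called and 24.6% higher (18.2% lower), and both BDNF samples lay above both KCl samples for each, as in 36.1% of all genes. The difference was largest for Spry4 (log2 2.47 ± 0.23, 5.55-fold, adjusted p = 5.663e-07), then Spred3 (1.47 ± 0.09), Spred2 (1.43 ± 0.09) and Spred1 (1.12 ± 0.10). It was 0.85 ± 0.15 for Spry1, 0.56 ± 0.17 for Errfi1 and 0.27 ± 0.09 for Spry2. Without KCl 1 h replicate B the values for Errfi1 and Spry2 were both 0.15 and not called (adjusted p = 0.4252 and 0.3319), without replicate A that of Errfi1 was 0.97, and without BDNF 1 h replicate B that of Spry2 was 0.22 (adjusted p = 0.17).

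At 6 h, 4 members were higher with BDNF and 2 lower, beside 57.3% of all genes, 29.6% higher and 27.8% lower. Spry4 (1.19 ± 0.23), Spred3 (0.57 ± 0.09), Spred2 (0.52 ± 0.09) and Spred1 (0.43 ± 0.10) were higher with BDNF. Errfi1 was lower with BDNF by 0.95 on the log2 scale (-0.95 ± 0.17, adjusted p = 7.827e-05), so its order between the stimuli had turned since 1 h. Spry2 was lower by a small margin (-0.21 ± 0.09, adjusted p = 0.07038), a call that was lost without either BDNF 6 h library or without KCl 6 h replicate B (adjusted p = 0.1733 to 0.1852). Spry1 did not differ beyond its spread (-0.02 ± 0.15). At 10 h, Spry4 (1.30 ± 0.23), Spred3 (0.63 ± 0.09), Spred1 (0.49 ± 0.10) and Spred2 (0.22 ± 0.09, adjusted p = 0.06828) were higher with BDNF, beside 45% of all genes called and 23.1% higher, and none was lower (21.8%). The Spred2 value at 10 h was 0.13 without BDNF 10 h replicate A (adjusted p = 0.4059), and the call was also lost without either KCl 10 h library (adjusted p = 0.101 and 0.256).

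**Figure D2:**
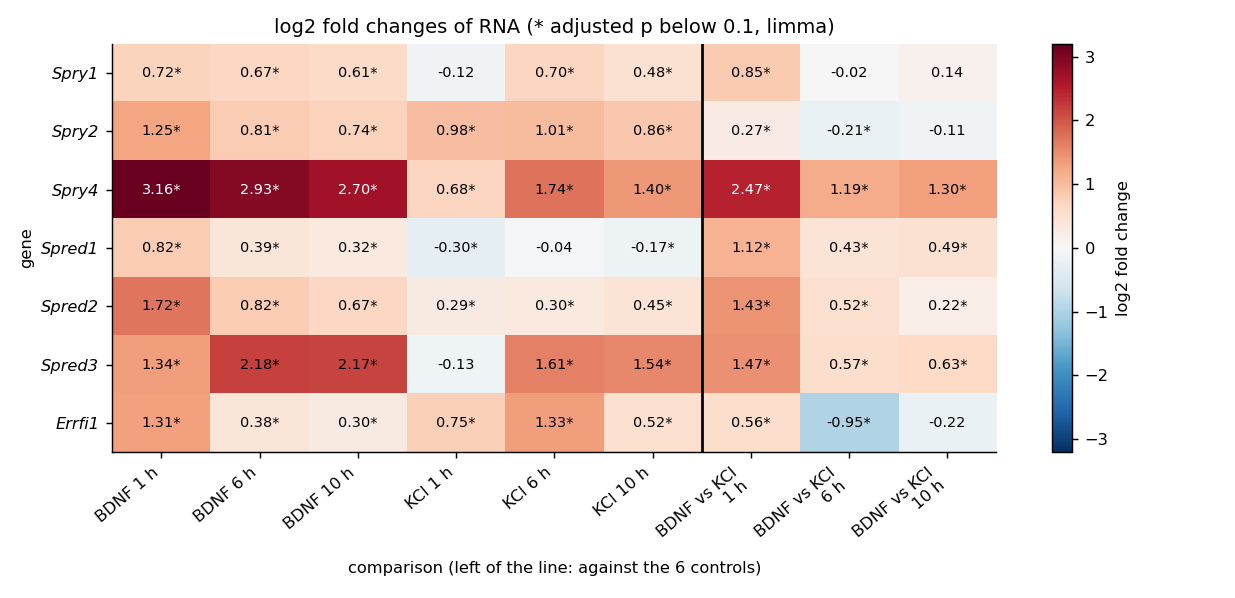
log2 fold changes (colour and printed value) of the 7 genes in rows, for the 6 comparisons with the 6 controls and, right of the line, BDNF against KCl at 1, 6 and 10 h; a star marks an adjusted p below 0.1 (limma). All BDNF cells are called and positive, Spry4 holds the largest values, and Errfi1 is positive in BDNF against KCl at 1 h (0.56) and negative at 6 h (-0.95).

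The order of the genes by level, compared as normalised counts per kb of annotated exon, also changed with the stimulus. In controls it was Spry2 (316 ± 20.4 per kb, SD, n = 6), Spred1 (243 ± 13.1), Spred2 (178 ± 8.16), Errfi1 (76.9 ± 5.02), Spred3 (75.3 ± 3.26), Spry1 (58.9 ± 8.57) and Spry4 (28.8 ± 2.46). Neighbours did not overlap, except Errfi1 with Spred3 and Spred3 with Spry1. After 1 h of BDNF, Spry4 stood in the fourth place (258 ± 4.51, n = 2) and Spry1 in the last (97.4 ± 17.1), and Spred2 (584 ± 18.6) was above Spred1 (428 ± 1.16). At 6 h of BDNF, Spred3 was in the second place (343 ± 19.3) but overlapped Spred1 (318 ± 23.6), which overlapped Spred2 (314 ± 12.0). Spry2 had the highest level per kb in all 7 groups.

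By a rule based on the Pearson correlation of the 9 group means of log2(value + 1) with every other tested gene that has a symbol, each member was given its closest genes. These correlations describe patterns over 9 groups that share stimuli and controls, and carry no test. Etv5, a transcription factor of the ETS family induced by receptor kinase signalling, was closest to Spry4 (r = 1.00), followed by Eif4e (r = 0.990). Spry2 was closest to 1700016P03Rik and Mir132 (r = 0.996 and 0.995), Spry1 to Noc4l and Slc20a1 (0.982 and 0.974), and Spred1 to Pdgfb and Inafm2 (0.987 and 0.985). Spred2 was closest to Usp36 and Vcl (0.981 and 0.980), Spred3 to Rcan2 and Ipo4 (both 0.986), and Errfi1 to Tas1r3 and Ranbp6 (0.981 and 0.980). Among the members themselves, r over the 9 means ran from 0.295 for Spred1 with Errfi1 to 0.932 for Spry1 with Spred3. Etv5 had 626 to 681 in the 6 controls, 2205 and 2217 at 1 h of BDNF and 757 and 984 at 1 h of KCl, with both KCl libraries above all controls.

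The rest of the pathway was taken from 8 fixed lists with 114 genes, of which 107 were tested. With BDNF, 42 were higher and 16 lower at 1 h, 26 and 32 at 6 h, then 20 and 35 at 10 h. With KCl, 36 were higher and 22 lower at 1 h, 49 and 28 at 6 h, then 40 and 25 at 10 h. As shares of those tested, 39.3% were higher and 15% lower at 1 h of BDNF (21.3% and 19% of all genes), and 33.6% and 20.6% at 1 h of KCl (26.5% and 28.2%). At 6 h the shares higher and lower were 24.3% and 29.9% with BDNF (22.1% and 21.1% of all genes). With KCl they were 45.8% and 26.2% (33.4% and 33.1%). At 10 h they were 18.7% and 32.7% with BDNF (21.1% and 19.5%), and 37.4% and 23.4% with KCl (29% and 28.2%). The counts of the single lists below stand against these shares over all genes at each time, with 40.4% called at 1 h of BDNF and 54.7% at 1 h of KCl. The median of these genes at 1 h was 0.12 with BDNF and 0.06 with KCl on the log2 scale, against the members' 1.31 and 0.29.

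Of 16 tested ligands, 7 were higher and 2 lower at 1 h of BDNF. Areg (amphiregulin), a ligand of the EGF receptor, had 0.979 to 3.11 in controls, 105 and 120 at 1 h of BDNF and 2.47 and 3.21 at 1 h of KCl. Its change with BDNF was 5.40 ± 0.33 on the log2 scale at 1 h, while with KCl it was 0.51 at 1 h (not called) and 3.08 at 6 h. Bdnf itself rose with KCl, by 4.86 ± 0.19 at 6 h, and by 0.89 with BDNF at 6 h. Of 12 tested receptors, 3 were higher and 1 lower at 1 h of BDNF and 2 and 7 at 10 h. Fgfr1 rose by 1.27 ± 0.08 at 1 h of BDNF and Met (the receptor of hepatocyte growth factor) fell by 1.20 at 10 h.

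Among 18 adaptors and Ras exchange factors, 5 were higher and 4 lower at 1 h of BDNF, and 9 and 2 at 1 h of KCl. Rasgrf2, a calcium-responsive Ras exchange factor, fell by 1.93 at 6 h of BDNF and by 1.11 at 6 h of KCl, and the neuronal adaptor Shc3 rose by 1.35 ± 0.12 at 6 h of KCl. Of the 16 genes of Ras, Raf, MEK and ERK, 5 were higher and 2 lower at 1 h of BDNF. The scaffold Ksr2 fell by 1.00 at 6 h of BDNF. Of the 9 Ras GTPase-activating proteins, 2 were higher and 3 lower at 1 h of BDNF and 5 and 1 at 6 h of KCl, with Rasal1 up by 1.25 ± 0.22 at 1 h of KCl and Rasa4 down by 0.87 (-0.87 ± 0.20) at 6 h of BDNF.

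Of 10 partners of Sprouty and Spred, 6 were higher and 2 lower at 1 h of BDNF, and 6 and 1 at 1 h of KCl. Siah2, a ubiquitin ligase that targets Sprouty proteins, rose by 2.17 ± 0.09 at 1 h of KCl and by 1.06 at 1 h of BDNF, and the kinase Prkcd rose by 1.07 ± 0.16 at 10 h of KCl. Other receptor kinase inhibitors, 14 of them tested, had 6 higher and 1 lower at 1 h of BDNF but 3 higher and 6 lower at 1 h of KCl. The adaptors Dok1 (-1.14 ± 0.32 at 1 h of KCl) and Dok2 (-1.51 ± 0.40 at 10 h of KCl) changed most in that list, from group means of only 19.2 and 18.9 in controls. Of 12 transcription factors downstream of ERK, 8 were higher and 1 lower at 1 h of BDNF and 4 and 2 at 1 h of KCl. Etv5 rose by 1.77 ± 0.07 at 1 h of BDNF and by 0.41 at 1 h of KCl, and Srf by 1.65 ± 0.07 and 1.09.

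Some markers of other cells moved with the stimuli at the later times, and their counts stand against the shares over all genes. At 6 h, 21.1% of all genes were lower with BDNF and 33.1% with KCl (22.1% and 33.4% higher). At 10 h, 19.5% and 28.2% were lower (21.1% and 29% higher), and at 1 h, 19% and 28.2% (21.3% and 26.5% higher). In the direct comparison at 1 h, 24.6% were higher with BDNF. Of 7 tested astrocyte and radial glia markers, 4 were lower at 6 h of BDNF and 6 at 6 h of KCl, and none was higher at either. Gfap, for example, fell by 1.22 and Aqp4 by 1.17 at 6 h of KCl. The summed level of that list was 19377 to 23703 with BDNF and 16880 to 25418 with KCl, beside 19970 to 24149 in controls. Of 6 markers of dividing cells, 4 were lower at 6 h of BDNF and 3 at 6 h of KCl, and at 10 h 5 were lower with BDNF and all 6 with KCl. Their summed levels were 3914 to 5998 with BDNF and 3116 to 6697 with KCl, beside 4434 to 7263. At 1 h of KCl, 3 of 7 markers of the oligodendrocyte lineage were lower and none higher, and 6 of the 7 were higher with BDNF than with KCl at that time, where all 7 members were higher with BDNF. The summed level of that list was 5964 to 6453 in controls, 5661 to 6803 with BDNF and 4420 to 7468 with KCl. In the same lineage 1 of 7 was higher and 3 were lower at 6 h of BDNF, and 2 and 4 at 6 h of KCl. Of 9 neuron markers, 5 were higher and 2 lower at 6 h of BDNF and 6 and 2 at 6 h of KCl. Of 6 fibroblast and mural cell markers, 2 were lower at 6 and at 10 h of BDNF, and with KCl 2 were higher at 1 h, 1 was lower at 6 h and 4 were lower at 10 h. At 6 h of KCl, 1 of 5 microglial markers was lower and none of 2 endothelial markers was called. At 1 h of BDNF, 5 neuron markers were higher and none lower, and 2 astrocyte and radial glia markers were higher and none lower. The part of these shifts in the members' RNA was not tested.

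Open chromatin was read at 20 peaks that lay within 50 kb of an annotated start of a member or inside its gene, all of them tested. Spred2 had 6, Spry2, Spry4 and Spred3 had 3 each, Spry1 and Spred1 had 2 each and Errfi1 had 1. At 1 h of BDNF, 7 of the 20 were called higher than controls (gained) and none lower, beside 17.3% of 56383 peaks called, 12.5% gained and 4.78% lower (edgeR). At 6 and 10 h of BDNF, 5 were gained (8.88% and 7.46% of all, of 10.6% and 9.36% called, 1.75% and 1.9% lower). With KCl, 4 were gained at 1 h (5.29% of 8.34% called), 2 at 6 h (5.44% of 7.49%) and 1 at 10 h (5.91% of 7.87%), and none was lower at any time (3.05%, 2.06% and 1.96% of all peaks). This rested on the LOESS scaling: with TMM, and with DESeq2, 3 were gained and 4 lower at 1 h of KCl, and 1 gained and 4 lower at 10 h, and at 6 h 1 was lower with DESeq2. Over all peaks the gained share of the KCl calls was 63.4%, 72.6% and 75.1% at the 3 times, with TMM 57.6%, 65.9% and 63.2%, and with DESeq2 50.6%, 57.9% and 54.3%. Several alternatives moved the counts at 6 and 10 h, and that for KCl at 1 h, by over 1.5 times. In the direct comparison at 1 h, 6 of the 20 were higher with BDNF and 1 lower (9.3% and 5.55% of all, 14.9% together). No peak of the 20 was called by edgeR at 6 h (3.63%, with 2.25% higher and 1.37% lower), and 2 were higher at 10 h (1.16% higher and 0.83% lower of 1.99% called).

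The intronic Spred2 peak printed above had the largest change of the 20. In controls its scaled read count was 1.16, 5.24 and 14.5 (lowest, median, highest), from 1 to 10 reads per library. It was 164 and 171 at 1 h of BDNF, 45.0 and 28.7 at 6 h, then 41.3 and 35.5 at 10 h. With KCl it was 23.6 and 20.2 at 1 h, 21.8 and 23.5 at 6 h, then 22.5 and 15.7 at 10 h. No stimulated library overlapped the controls. The log2 change was 4.85 ± 0.30 at 1 h of BDNF (28.8-fold, adjusted p = 4.415e-30), 2.64 ± 0.35 at 6 h and 2.72 ± 0.38 at 10 h, and 1.91 ± 0.37, 1.94 ± 0.42 and 1.71 ± 0.41 with KCl. BDNF exceeded KCl by 2.94 ± 0.35 at 1 h (adjusted p = 4.556e-11), and the difference at 6 and 10 h was not called. The call for KCl at 6 h and that at 10 h were each lost without 1 library, with adjusted p up to 0.1222 and 0.1774, and for KCl 10 h also against the controls of the same time alone (log2 1.15, adjusted p = 0.2577).

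The promoter peak of Spred2 (chr11:19923978-19924656) was gained with BDNF and not called with KCl. It had 127, 150 and 176 in controls, 277 and 244 at 1 h of BDNF, 229 and 211 at 6 h, then 239 and 212 at 10 h. With KCl it had 130 and 148 at 1 h, 146 and 200 at 6 h, then 149 and 145 at 10 h. The BDNF samples were all above the controls, by 0.78 ± 0.12 at 1 h (adjusted p = 1.648e-07), 0.53 ± 0.13 at 6 h and 0.57 ± 0.14 at 10 h. BDNF exceeded KCl by 0.89 ± 0.16 at 1 h (adjusted p = 9.474e-06). Its call at 10 h was lost without 1 library (adjusted p = 0.1215). A pair of further Spred2 peaks, named after their values were seen, were gained at 1 h of BDNF only among the 6 comparisons with controls. The peak 24.6 kb upstream changed by 1.26 ± 0.27, and an intronic peak 23.4 kb into the gene by 1.69 ± 0.41, which was 0.96 without 1 BDNF 1 h library (adjusted p = 0.3944).

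The peak past Spry1, printed above, had 7.32, 11.0 and 14.4 in controls, 45.6 and 47.9 at 1 h of BDNF, 39.5 and 22.3 at 6 h, then 8.00 and 25.0 at 10 h. With KCl it had 30.1 and 22.4 at 1 h, 24.3 and 28.0 at 6 h, then 15.4 and 11.6 at 10 h. It was above all controls at 1 and 6 h of both stimuli and overlapped them at 10 h. The log2 change was 2.08 ± 0.35 at 1 h of BDNF (adjusted p = 7.027e-07), 1.46 ± 0.37 at 6 h, and 1.24 ± 0.37 and 1.22 ± 0.42 at 1 and 6 h of KCl. The difference between BDNF and KCl there at 1 h was 0.85 ± 0.41 and was not called. The BDNF 6 h call was lost without 1 library (adjusted p = 0.3315), and the KCl calls were lost without 1 library at 1 h or any 1 of 4 at 6 h and against the controls of the same time (adjusted p = 0.1561 and 0.2358). The Spry1 promoter peak (chr3:37639716-37641200) was called at 1 h of KCl alone (0.36 ± 0.13, adjusted p = 0.09357), a call lost with TMM scaling (adjusted p = 0.212) and without any 1 of 7 libraries. The Spry1 RNA was not called at that time.

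At the Spry2 promoter (chr14:105896905-105898080), scaled counts were 254 to 313 in controls, 354 to 404 at 1 h of BDNF and 255 to 260 at 1 h of KCl. The peak was gained at 1 h of BDNF by 0.40 ± 0.10 (adjusted p = 0.001813, 0.1822 without 1 library) and was 0.56 ± 0.13 higher than with KCl. At 10 h of BDNF its value was 0.29 ± 0.11 (adjusted p = 0.09869), a call lost without any 1 of 11 libraries. A peak 45.3 kb past the start of Spry2, also named after its values were seen, was gained at 10 h of BDNF (0.87, adjusted p = 0.04518) and at 1 h of KCl (0.89, adjusted p = 0.0233), and the first was lost without either BDNF 10 h library (adjusted p = 0.3946 and 0.1142) and the second without KCl 1 h replicate B (adjusted p = 0.4923) and against the controls of the same time (adjusted p = 0.1346). With TMM scaling the Spry2 promoter was lower at 1 and 10 h of KCl (-0.32, adjusted p = 0.05058, and -0.49, adjusted p = 0.001546). For Spry4, the gene with the largest RNA change, neither the promoter peak (38600797 to 38601858 on chromosome 18) nor the intronic peak was called at any time with LOESS scaling. The promoter differed from controls at 10 h of KCl by -0.39 ± 0.15 (adjusted p = 0.1001), which became a call with TMM (-0.58, adjusted p = 0.003354), with DESeq2 (-0.62, adjusted p = 0.003402) and without any 1 of 7 libraries. The promoter values were 167, 183 and 223 in controls and 171 and 199 at 1 h of BDNF, a change of -0.01 ± 0.13. A peak 30.4 kb upstream of Spry4 had 49.2, 61.4 and 74.3 in controls, 95.0 and 109 at 1 h of BDNF, 114 and 66.8 at 6 h, then 116 and 91.9 at 10 h. It was gained by 0.74 ± 0.20 at 1 h, 0.53 ± 0.20 at 6 h and 0.75 ± 0.22 at 10 h and was not called with KCl. At 6 h its value was 0.13 without BDNF 6 h replicate A (adjusted p = 0.9426) and 0.90 without replicate B. The call at 6 h was also lost with TMM, DESeq2, limma and the controls of the same time (adjusted p of 0.1283, 0.2399, 0.1895 and 0.6145), those at 1 and 10 h without 1 library (0.1646 and 0.3451), and that at 10 h against the controls of the same time (0.1679).

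The promoter peaks of Spred1 and Errfi1 were not called at any time with LOESS scaling. With TMM both were lower at 1 h of KCl (-0.35, adjusted p = 0.03926, and -0.41, adjusted p = 0.03267), as with DESeq2 (adjusted p = 0.02594 and 0.04644), and Spred1 also at 10 h of KCl (TMM -0.38, adjusted p = 0.02637). At 6 h of KCl, Errfi1 was lower with DESeq2 (-0.40, adjusted p = 0.09957). Errfi1 had 175, 209 and 233 in controls, 183 and 207 at 1 h of BDNF and 158 and 190 at 6 h of KCl, the times at which its RNA was highest. Its changes there were -0.07 ± 0.13 and -0.20 ± 0.14. Spred1 had 223, 240 and 263 in controls and 241 and 262 at 1 h of BDNF (0.06 ± 0.11). The Spred3 promoter peak (chr7:29169235-29170553) also covers the start of Ggn, and was called at 6 h of BDNF alone (0.38 ± 0.14, adjusted p = 0.07966), a call lost with TMM scaling (adjusted p = 0.1389) and without any 1 of 4 libraries. The other Spred3 peaks overlap the genes Fam98c and Psmd8 and were not called with LOESS scaling, but the one at Psmd8 was lower with TMM at 1 h (-0.38, adjusted p = 0.05953) and 10 h of KCl (-0.36, adjusted p = 0.08274).

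**Figure D3:**
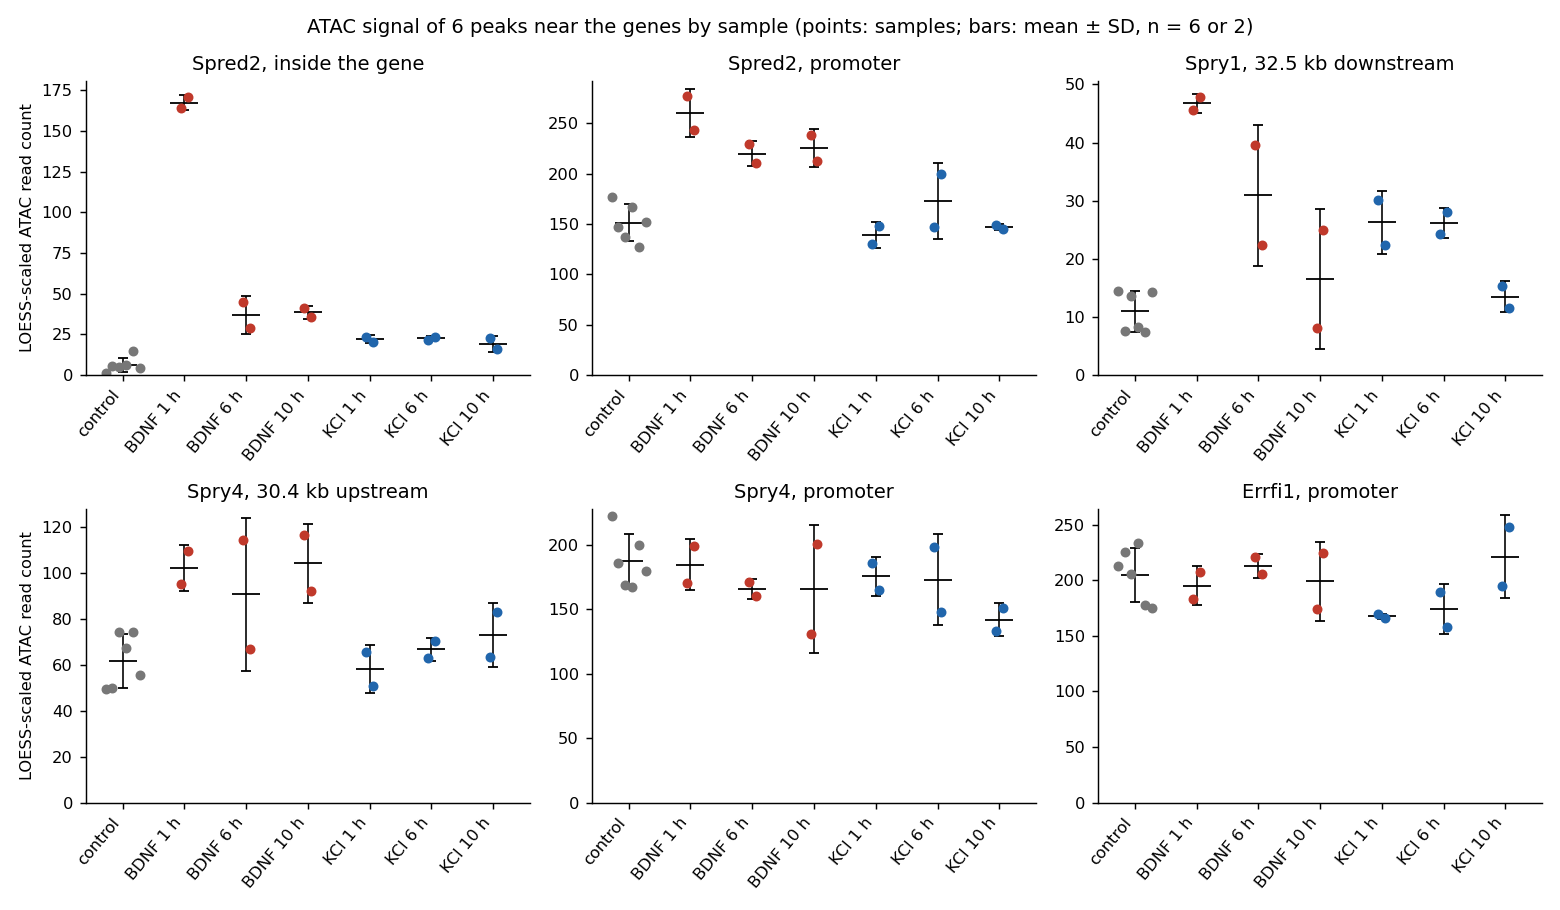
LOESS-scaled ATAC read count (y, linear from 0) of 6 peaks in every ATAC sample, controls in grey, BDNF in red and KCl in blue; bars are mean ± SD (n = 6 or 2). The intronic Spred2 peak reaches 164 and 171 at 1 h of BDNF from 14.5 or less in controls, the Spred2 promoter and the peak 30.4 kb upstream of Spry4 are higher with BDNF, and the Spry4 and Errfi1 promoters overlap the controls at 1 h of BDNF.

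An AP-1 match lay in the central 300 bases of 16.3% of the 56383 tested peaks and in 2 of the 20 peaks near members, the intronic Spred2 peak and the peak past Spry1. Both of these were gained at 1 and 6 h of each stimulus. Over all tested peaks, 51.6% of those with an AP-1 match and 4.89% of those without were gained at 1 h of BDNF, and 13.4% and 3.72% at 1 h of KCl. After 6 h of BDNF, 41.6% of all peaks holding a match were gained, beside 2.53% of those lacking one. The same shares after 6 h of KCl were 20.5% for peaks holding a match, beside 2.51%. The remaining 18 peaks near members, 5 of them gained at 1 h of BDNF, had no AP-1 match in the window. RefSeq promoters (300 bases around a start, GRCm38.p6) were found for 6 of the 7 members, all but Spry4, and Errfi1 had a pair of starts. None of these promoters held an AP-1 match, which 7.81% of 32851 promoters hold. The CRE of Errfi1 was the only CRE match, beside 1.79% of promoters, and Spry2 held 1 ETS match, beside 14.9%. No EGR match (5.55%) and no CArG box (1.63%) was found in these promoters. Among the windows of the 20 peaks near members, that of the peak 30.4 kb upstream of Spry4 held 2 EGR matches. A peak 2.1 kb upstream of Spry2 held 1 ETS and 1 EGR match. A peak 4.1 kb upstream of Spred2 held 1 ETS match. Over all tested peaks, 3.87% held an EGR match and 8.7% an ETS match. A match of letters is a description and does not show binding.

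Beyond 50 kb, Spred2 had further peaks that changed, again named after their values were seen. A peak 81.1 kb upstream was gained at 1 h of BDNF by 3.47 ± 0.46 on the log2 scale and at 6 and 10 h by 2.50 and 2.00, and was not called with KCl (0.36 at 1 h). Peaks 88.8 kb upstream (1.74) and 84.4 kb past a start (1.71) were gained at 1 h of BDNF too. Such distant calls were not confined to Spred2. Within 100 kb of the 7 members 15 peaks were called in either direction at 1 h of BDNF. This stands beside 7 of 20 within 50 kb and 17.3% of all peaks. The wider window holds more peaks, so the count of 15 alone shows no excess over all peaks. Those near other members are not named here.

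**Figure D4:**
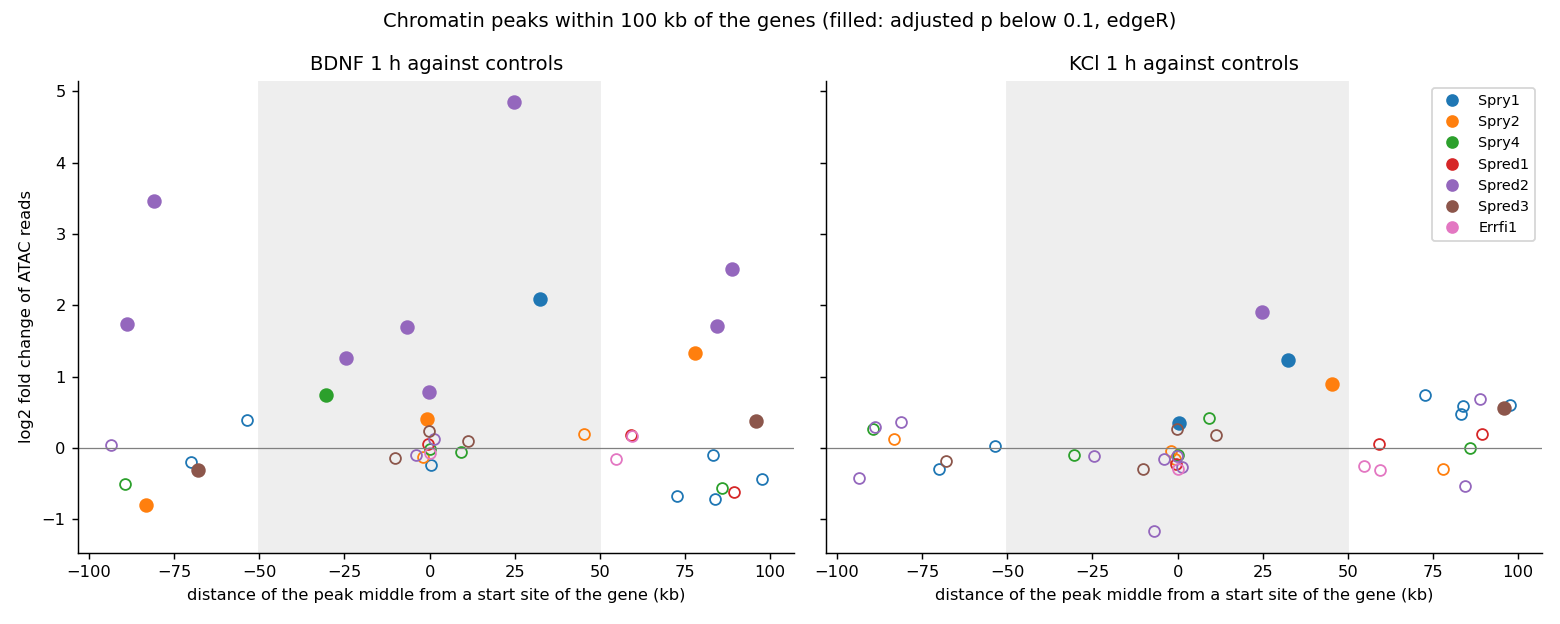
log2 fold change of ATAC reads (y) against the distance of the peak middle from the nearest annotated start of the gene (x, kb), for peaks within 100 kb of the 7 genes, at 1 h of BDNF (left) and of KCl (right); filled points have an adjusted p below 0.1 (edgeR) and the grey band marks 50 kb. The largest values at 1 h of BDNF belong to Spred2, 4.85 inside the gene and 3.47 at 81.1 kb upstream, and the KCl points near the same positions are 1.91 and 0.36.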

How the data were processed

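RNA-seq and ATAC-seq were measured in 18 samples each. Per the submitters' processing notes, Trimmomatic, TopHat2, Bowtie2, MACS2, DiffBind and DESeq2 were used with mm10. The deposited RNA values are a signal, namely gene read counts divided by a size factor per sample by the authors, and 100% of values gave whole reads within 0.01. The deposited ATAC values, reads per peak counted by the authors, are raw counts although named as normalised, so LOESS scaling was added here. The authors' tables of fold changes, statistics and p-values were not used beyond gene names.

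log2(value + 1) was tested with limma 3.58.1 (R 4.3.3) and ATAC counts with edgeR 4.0.16 quasi-likelihood with LOESS offsets, on features with a mean of at least 10 (16209 genes, 56383 peaks), in a model of 7 levels. Fold changes of RNA are on the log2(value + 1) scale, which understates changes of low genes. Tests were two-sided with Benjamini-Hochberg adjustment over all features, and calls were made at an adjusted p below 0.1. Errors of log2 values are SE. For ATAC this is the size of the log2 change divided by the square root of its quasi-likelihood F statistic. Replicates are called A and B, after the column letters for RNA and in table order for ATAC, where they pair nothing. The study calls the replicates biological, but the labels do not say that they came from separate cultures, so p-values measure the spread between these samples, which may be technical. The counting program and its use of strand are not given in the sources used here. No replicate columns were identical (chi-square per degree of freedom of 2.43 to 39.2 for RNA and 2.04 to 2.58 for ATAC).

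Named were all members, the 2 genes of each other list with the largest called change from controls, the 2 genes most alike to each member, and for each member the promoter peak and the called peak with the smallest p. A gene that this rule names is not reported here. Promoter peaks overlap 1000 bases before to 100 after a GENCODE M21 start. Members and lists were chosen with earlier results of these data known. Scripts were tested on simulated data. Alternatives were other pseudocounts, filters, scalings, tools, thresholds, windows and control sets, a replicate block, and each library left out.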

Additional observations from a re-analysis of the deposited data

Results flagged for a closer look

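Of 27 sets of 6 control values (7 genes and 20 peaks), 2 held a sample far from the other 5. Both were the first control library of 10 h in ATAC, with a scaled count of 14.5 at the intronic Spred2 peak, the highest of the controls, and of 14.5 at the peak 45.3 kb past the start of Spry2, the lowest. By chance about 1 such set in 20 is expected to hold one.

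Of 28 differences of a stimulus effect between times, each effect taken against the controls of its own time (limma, 9 levels), 16 passed an adjusted p of 0.1. Of all 16209 genes, 2574 passed for BDNF at 6 h against 1 h (1119 higher, 1455 lower) and 2472 at 10 h (1075 and 1397). For KCl, 6868 passed at 6 h against 1 h (3647 higher, 3221 lower) and 6040 at 10 h (3363 and 2677). The BDNF effect at 6 h was smaller than at 1 h for Spry2 (-0.49), Spred1 (-0.44), Spred2 (-0.83) and Errfi1 (-0.91) and larger for Spred3 (0.84), on the log2 scale. At 10 h against 1 h it was smaller for Spry2 (-0.58), Spred1 (-0.58), Spred2 (-1.12) and Errfi1 (-0.91) and larger for Spred3 (0.88). The KCl effect at 6 h was larger than at 1 h for Spry1 (0.65), Spry4 (1.07), Spred3 (1.74) and Errfi1 (0.60), and at 10 h for Spry1 (0.63) and Spred3 (1.73).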

How the results depend on the processing

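Counts of the 7 genes called in RNA stayed within 1.5 times under every alternative that kept all libraries. With 1 library left out, they ranged from 7 to 7, 6 to 7 and 6 to 7 for BDNF at 1, 6 and 10 h, from 4 to 6, 6 to 6 and 6 to 7 for KCl, and from 5 to 7, 5 to 6 and 3 to 5 for BDNF against KCl. They ranged from 5 to 5 and 0 to 0 for the BDNF steps in time, from 3 to 5 and 1 to 2 for the KCl steps, and stayed at 0 to 0 in controls. Of 67 single calls of genes, 55 held under every alternative and 12 were lost under at least 1, with no change of sign; of 33 calls of peaks, 12 held and 21 were lost. With the replicate block on the letters A and B, the RNA counts were 7, 7, 7 for BDNF, 5, 6, 7 for KCl, 7, 6, 4 for the direct comparison and 5, 0, 5, 1 for the steps, and of 91 results compared, 67 of them called, none changed its call. The deviations of replicate A correlated between groups from -0.315 to 0.418, with 13 of 36 pairs of groups above 0.1. With 2 samples per group, this does not decide whether the letters pair some of the samples. No paired analysis was possible because the ATAC columns carry no replicate number.

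The 20 peaks depended more on the processing, and the cause was not tested. With 1 library left out, the counts ranged from 6 to 7, 2 to 5 and 1 to 5 for BDNF, while KCl gave 2 to 4, 0 to 4 and 0 to 2, and the direct comparison 5 to 8, 0 to 0 and 0 to 2. For BDNF at 6 h, TMM, DESeq2, limma, controls of the same time and an adjusted p below 0.01 each gave 3. For BDNF at 10 h, controls of the same time gave 3 and the 0.01 threshold 2. For KCl at 1 h, TMM and DESeq2 gave 7 (3 gained, 4 lower), controls of the same time 2 and the 0.01 threshold 1. For KCl at 6 h, limma gave 4, and controls of the same time and the 0.01 threshold 1. For KCl at 10 h, TMM and DESeq2 gave 5 (1 gained, 4 lower) and controls of the same time 0. In the direct comparison, TMM gave 1 at 6 h and the 0.01 threshold 0 at 10 h. Peaks called within 20 kb numbered 4, 3 and 3 for the BDNF times, 2 for KCl 1 h and 1 for KCl 6 h. Within 100 kb they numbered 15, 10 and 10 for the BDNF times, 4 for KCl 6 h, 3 for KCl 10 h, and 16, 4 and 4 for the direct comparison. The windows hold different numbers of peaks, so these counts alone show no excess over all peaks. Of all peaks, 17.3%, 10.6% and 9.36% were called for the BDNF times and 8.34%, 7.49% and 7.87% for KCl. The direct comparison called 14.9%, 3.63% and 1.99%. Depth limits the printed intronic Spred2 peak in controls, which rests on 1 to 10 reads per library. It limits other peaks too. The printed peak past Spry1 had 5 to 14 reads per control library. Another intronic Spred2 peak, gained at 1 h of BDNF, had 3 to 16.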
